A study of Homo sapiens with 8 samples.

Results

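RNA levels and H3K27ac peaks were examined for 10 genes of extracellular matrix breakdown: the matrix metalloproteinases MMP1, MMP2, MMP7, MMP14 and MMP15, the inhibitors TIMP1, TIMP2 and TIMP3, the urokinase gene PLAU and its receptor gene PLAUR. The genes were chosen by name, as rows of the deposited table whose gene identifier maps to these symbols in GENCODE. All 10 were found among 43869 genes, and 78 of 126470 H3K27ac peaks were paired with them, that is, lay at most 20 kb away. Values of 4 lines were used: treatment-naive H3122 cells, a lung adenocarcinoma line that carries the EML4-ALK fusion, and 3 lines derived from it, named erCriz0, erAlec0 and erLor0. These had evolved resistance by gradual dose escalation in 0.5 µM crizotinib, 2 µM alectinib or 2 µM lorlatinib, which are inhibitors of the ALK kinase. All lines were grown in RPMI with 10% FBS and the ChIP samples are labelled as kept in 0.1% DMSO, and RNA was taken after 48 h without inhibitor. Each line gave 1 RNA and 1 ChIP library, so no difference has a replicate check and no test or p-value is given. The other 4 samples of the series, from erCriz1, erLor1, cells after lorlatinib treatment and pooled input, were not analysed here.

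Matrix metalloproteinases are zinc proteases that are made as inactive precursors, and most are secreted while a few are anchored in the cell membrane. MMP14, also called MT1-MMP, activates the MMP2 precursor at the cell surface in a complex with TIMP2, and TIMPs block the active proteases by binding their catalytic site. Urokinase binds its receptor on the cell surface and there converts plasminogen into plasmin, which can in turn activate metalloproteinase precursors. H3K27ac is an acetylation of histone H3 found at active promoters and enhancers.

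All values are rlog values, a log2 scale on which a change of 1 is a 2-fold difference. The transform draws weakly covered genes and peaks toward their mean over the libraries, so their changes are understated, and the depth of the libraries is unknown. A change is the value in a resistant line minus that in naive cells. A gene or peak rose or fell where the change was at least 1 in size, and a gene was taken as expressed where its value reached the log2 of 25 reads, 4.64, in at least 1 library. The epithelial character of the lines was examined with marker genes, which cannot identify a line as H3122. All 6 lung epithelial markers (EPCAM, CDH1, KRT8, KRT18, KRT19, NKX2-1) were expressed in the 4 lines and none changed by 1. No fibroblast marker in the table (4 genes, summed level between 3.87 and 4.21 on the log2 scale) and no leukocyte marker (5 genes, summed level between 4.66 and 4.83, PTPRC and MS4A1 listed at 0) was expressed. Of 4 endothelial markers, PECAM1 and VWF lay near 0 while CDH5 (4.10, 4.28, 5.78 and 5.64 in naive, erCriz0, erAlec0 and erLor0 cells) and KDR (6.58, 5.43, 6.02 and 7.01) were expressed, and their part in the results was not tested.

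MMP1, the interstitial collagenase, showed the largest RNA change of the 10 genes in each resistant line. Its level was 6.14 in naive cells, 8.56 in erCriz0, 9.08 in erAlec0 and 9.13 in erLor0. All resistant lines lay above naive cells, by 2.41, 2.94 and 2.98, which correspond to 5.32-fold, 7.65-fold and 7.90-fold, and erAlec0 and erLor0 differed by only 0.05. In bulk RNA a higher level per cell and a larger share of cells with the transcript cannot be told apart, here and for the other genes. MMP14, at the cell surface, had 8.16 in naive cells, 8.85 in erCriz0, 9.01 in erAlec0 and 9.39 in erLor0. The order was the same as for MMP1, and MMP14 rose in erLor0, by 1.23, while its changes of 0.69 in erCriz0 and 0.86 in erAlec0 stayed under the limit. PLAU had 10.24, 10.38, 11.14 and 11.36 in the same order of lines, with changes of 0.14, 0.90 and 1.13. PLAU thus rose in erLor0, was nearly as much higher in erAlec0, and was close to naive cells in erCriz0, which it exceeded in erLor0 by 0.98.

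MMP2, gelatinase A, rose only in erCriz0 among the 3 resistant lines. Its level was 3.40 in naive cells, 4.89 in erCriz0, 3.97 in erAlec0 and 3.44 in erLor0, a change of 1.49, 0.57 and 0.04. It passed the expression limit only through the erCriz0 library, where it is high, and erLor0 lay 1.45 below erCriz0. TIMP3, an inhibitor that stays bound to the matrix, went the other way, with 6.33 in naive cells, 5.55 in erCriz0, 5.40 in erAlec0 and 5.23 in erLor0. TIMP3 was lower in all resistant lines, by -0.78, -0.93 and -1.10, and fell by the limit in erLor0.

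**Figure D1:**
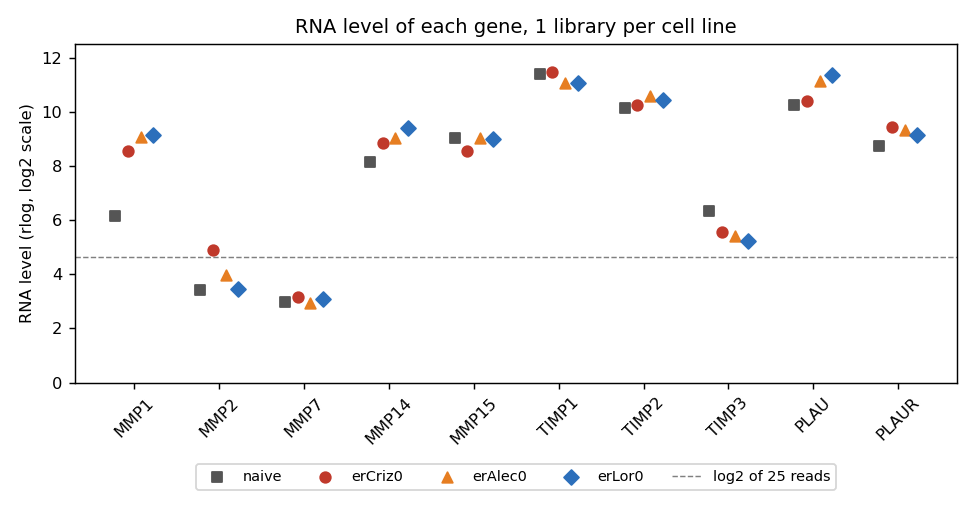
RNA level (rlog, log2 scale) of the 10 genes in naive H3122, erCriz0, erAlec0 and erLor0, with 1 point per library, so that no error can be drawn, and a dashed line at the log2 of 25 reads (4.64). MMP1 rises from 6.14 in naive cells to between 8.56 and 9.13, TIMP3 is lower in each resistant line, MMP7 lies under the dashed line in all libraries, and MMP2 is above it in erCriz0 alone.

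The other genes stayed within the limit in every line. PLAUR, the urokinase receptor, had 8.73 in naive cells, 9.44 in erCriz0, 9.32 in erAlec0 and 9.14 in erLor0. PLAUR was higher in each resistant line, by 0.71, 0.59 and 0.41. TIMP1, a soluble inhibitor, had 11.38, 11.47, 11.07 and 11.06, and was slightly lower in erAlec0 and erLor0, by -0.31 and -0.32. TIMP2 had 10.14, 10.25, 10.57 and 10.44 and was slightly higher, by 0.11, 0.43 and 0.29. MMP15, a membrane-type metalloproteinase, had 9.02, 8.55, 9.02 and 9.01, with a change of -0.46 in erCriz0 and of 0.00 and -0.01 in erAlec0 and erLor0. MMP7, matrilysin, was not expressed by the limit used, at 2.99, 3.14, 2.92 and 3.10.

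By count, 2 of the 10 genes (MMP1 and MMP2) rose in erCriz0, where 2.65% of 12701 expressed genes rose, 1 (MMP1) rose in erAlec0, where 2.46% did, and 3 (MMP1, MMP14 and PLAU) rose in erLor0, where 1.10% did. None fell in erCriz0 or erAlec0, where 1.65% and 2.07% of expressed genes fell, and 1 (TIMP3) fell in erLor0, where 0.740% did. Taken without sign, the median change was 0.58, 0.58 and 0.37 in erCriz0, erAlec0 and erLor0, against 0.26, 0.24 and 0.17 over expressed genes. The signed median was 0.15, 0.50 and 0.20 against -0.02, 0.00 and -0.00. These genes were chosen with earlier results known, so the figures describe them and are not evidence that the group moves. The median RNA change of 17 expressed genes within 5 Mb of MMP1 was 0.11, 0.08 and -0.06 in the 3 lines. Such a median does not show changes of single genes, and the neighbour MMP10, among the 17, changed by 0.12, 1.85 and 1.01. For MMP14, PLAU and TIMP3 the like median around each gene was taken off its change. In erLor0 this left 1.33, 1.07 and -1.08.

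Several of these genes overlap others, and the study's methods name a check of strandedness with RSeQC but not the strand setting of the counting, so that reads of antisense partners may be included. MMP1 shares 223 exon bases with the antisense pseudogene WTAPP1, which stayed between 1.64 and 1.91. PLAU shares 915 with the antisense transcript C10orf55, which stayed between 2.33 and 2.49. TIMP3 lies within SYN3 on the other strand (at most 0.52) and TIMP1 within SYN1 (2.35 in naive cells and at most 1.85 in the others), and TIMP2 shares 224 exon bases with CEP295NL on its own strand (between 1.70 and 1.91). The part of these partners in the values was not tested.

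Levels of different genes were compared per length, as the rlog minus the log2 of the exon length in kb. On this scale, TIMP1 was the most abundant of the 10 in all lines, at 10.85 in naive cells and 10.53 in erLor0, followed by PLAU, at 8.68 and 9.80, and TIMP2, at 7.51 and 7.80. The median over 12684 expressed genes was 5.77 in naive cells and 5.76 in erLor0. MMP1 moved from below that median (4.69 in naive cells) to above it in erCriz0 (7.10), erAlec0 (7.63) and erLor0 (7.67), which placed it next to TIMP2 in erLor0. MMP14 went from 5.95 to 7.18 in erLor0 and MMP15 stayed between 6.47 and 6.94. TIMP3 was already under the median in naive cells, at 4.13, and reached 3.03 in erLor0. Per length, MMP2 was lowest in naive cells, at 1.17, and its level in erCriz0 was 2.65. With 1 library per line, it cannot be said which neighbours in this order differ beyond their spread.

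Start regions of the genes are shown to give the sequence that lies under, or beside, the peaks described next. They are RefSeq sequences of GRCh38.p14, printed 5′ to 3′ on the strand of the gene, from 250 bases before the start and ended before the first exon base of GENCODE. RefSeq entries were matched for 7 of the 10 genes, and MMP1, MMP2 and TIMP2 were not matched. Capitals mark TGACTCA (the AP-1 motif), GGGCGG (the GC box) and AGGAAG (a PEA3/ETS motif), each searched on both strands, and TATAAA (the TATA box) on the strand of the gene. No matches overlapped. Over 35116 promoters of the same length, 4.20% hold the AP-1 letters, 42.6% the GC box, 28.7% the PEA3/ETS letters and 6.80% the TATA box. A match is a description of the sequence and not a bound site.

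The window of MMP7 (chr11:102530751-102530997, minus strand) holds an AP-1 motif 67 to 61 bases before the start and a TATA box 30 to 25 bases before it. Those of MMP14 (chr14:22836335-22836559, plus strand), TIMP1 (chrX:47582186-47582407, plus strand), TIMP3 (chr22:32801455-32801704, plus strand) and the downstream start of PLAU (chr10:73910882-73911103, plus strand, within an intron of longer PLAU transcripts) hold 1, 2, 5 and 3 GC boxes. Unlike that of MMP7, these windows hold neither TATAAA nor TGACTCA in exact letters, and variants were not searched. The windows are shown because MMP14 and PLAU rose in erLor0, TIMP3 fell there, and MMP7 and TIMP1 are the genes whose start-site peak and RNA can be set side by side at the lowest and the highest level.
MMP7: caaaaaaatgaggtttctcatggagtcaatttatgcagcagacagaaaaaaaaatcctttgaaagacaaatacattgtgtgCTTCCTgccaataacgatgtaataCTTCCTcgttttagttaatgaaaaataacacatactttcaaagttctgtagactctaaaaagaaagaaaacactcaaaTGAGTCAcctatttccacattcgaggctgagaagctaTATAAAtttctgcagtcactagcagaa
MMP14: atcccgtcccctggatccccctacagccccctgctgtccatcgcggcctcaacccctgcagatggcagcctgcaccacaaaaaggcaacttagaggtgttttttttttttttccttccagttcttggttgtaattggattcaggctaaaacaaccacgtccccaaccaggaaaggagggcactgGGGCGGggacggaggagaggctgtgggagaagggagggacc
TIMP1: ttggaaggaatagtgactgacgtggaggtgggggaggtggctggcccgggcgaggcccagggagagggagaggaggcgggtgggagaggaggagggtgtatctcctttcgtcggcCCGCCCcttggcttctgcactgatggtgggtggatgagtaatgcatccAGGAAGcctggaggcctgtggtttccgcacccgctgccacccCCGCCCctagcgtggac
TIMP3: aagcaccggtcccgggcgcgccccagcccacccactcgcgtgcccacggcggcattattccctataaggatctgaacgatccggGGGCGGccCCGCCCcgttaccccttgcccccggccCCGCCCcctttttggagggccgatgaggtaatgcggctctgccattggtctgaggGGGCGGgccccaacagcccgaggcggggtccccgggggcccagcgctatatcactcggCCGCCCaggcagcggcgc
PLAU: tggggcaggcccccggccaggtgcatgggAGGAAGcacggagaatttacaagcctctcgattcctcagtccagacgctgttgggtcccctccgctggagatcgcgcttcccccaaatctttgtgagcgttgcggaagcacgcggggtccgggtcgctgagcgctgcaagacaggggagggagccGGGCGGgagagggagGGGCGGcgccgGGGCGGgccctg
The window of PLAUR also holds an AP-1 motif, 186 to 180 bases before its start, and that of MMP15 holds 5 GC boxes. The window of the upstream RefSeq start of PLAU (chr10:73910360-73910609, plus strand) holds none of the motifs searched and is not printed.

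On the deposited scale, H3K27ac at the gene start followed the order of the RNA over the 4 lines for MMP14, and not for PLAU. The peak over the MMP14 start (chr14:22836011-22838285), which covers the whole window printed above, had 7.30 in naive cells, 7.32 in erCriz0, 7.78 in erAlec0 and 8.53 in erLor0. Like the RNA it was highest in erLor0, where it rose by 1.23, with changes of 0.03 and 0.49 in erCriz0 and erAlec0. Under quantile normalization the changes were -0.28, 0.28 and 0.97, so that erCriz0 lay below naive cells and the erLor0 change lay under the limit. As deposited, it was the only 1 of 21 peaks paired with MMP14 that rose in any line. The peak over the PLAU start (chr10:73905999-73912653) had 9.12, 9.73, 9.17 and 8.86, with changes of 0.61, 0.05 and -0.26, so that it was highest in erCriz0, where PLAU RNA was within 0.14 of naive cells, and lowest in erLor0, where PLAU RNA was highest.

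Peaks over the other starts changed by less than 1. The PLAUR start peak (chr19:43668719-43671253) had 7.93, 8.44, 7.66 and 8.22, with changes of 0.52, -0.27 and 0.30. The TIMP1 start peak (chrX:47582303-47582677), 375 bp long, had 4.30, 4.68, 3.69 and 3.84. Peak values are not corrected for length, unlike the RNA level per length, on which TIMP1 was highest. The broad MMP15 start peak (chr16:58020906-58027776) was changed by 0.19, 0.16 and 0.35. MMP7 had a peak over its start (chr11:102530300-102530949) in spite of its low RNA, at 5.18, 5.70, 5.52 and 5.38. For MMP1, MMP2, TIMP2 and TIMP3 none of the paired peaks lay within 5 kb of the 5′ end in GENCODE. The nearest was 13448 bp away for MMP1, 6126 bp for TIMP2, 7223 bp for TIMP3 and 110853 bp for MMP2, whose longest annotated transcript begins far upstream. No peak overlapped the TIMP3 window printed above.

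Over all 78 peaks, 4 rose and 3 fell in erCriz0, where 7.00% of all peaks rose and 5.94% fell. In erAlec0 3 rose and 4 fell, against 14.1% and 9.41% of all peaks, and in erLor0 1 rose and 7 fell, against 7.45% and 8.82%. Small shifts were more one-sided, since only 26.9% of the 78 peaks in erAlec0 and 29.5% of them in erLor0 exceeded the naive value, against 50.2% and 49.0% of all peaks, while erCriz0 had 47.4% against 49.6%. The median change was -0.08, -0.42 and -0.37, against 0.00 or 0 over all peaks. It differed by peak length: the 60 peaks under 2 kb had medians of -0.30, -0.47 and -0.40, against -0.07, 0 and -0.03 over all peaks of that length, and the 18 peaks of 2 kb or more had 0.33, -0.09 and 0.08, against 0.25, 0.11 and 0.23 over all peaks of that length. Many of the short peaks lie beside a long one, 73 of the 78 are also paired with another gene, and 13 stayed under the log2 of 15 reads, 3.91, in all libraries, so they are neither independent of each other nor specific to these genes.

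The RNA change and the median change of the paired peaks had the same sign for 5 of the 10 genes in erCriz0, 2 in erAlec0 and 4 in erLor0, against 54.0%, 50.0% and 51.2% of expressed genes. MMP1 was the clearest case of RNA without peaks: its 5 peaks, all of them also paired with MMP10, had a median of -0.27, -0.05 and -0.21 and none changed by 1. The 1 over the MMP10 start (chr11:102780191-102781021) had 5.10, 5.69, 5.06 and 5.24, and the largest change downward was -0.67 in erCriz0 (chr11:102782464-102782718). For MMP2, both peaks were higher in erAlec0 and in erLor0 (medians 0.27, 0.91 and 0.59), while its RNA rose in erCriz0. The MMP2 peak at chr16:55508922-55509811 lies over the start of the neighbouring gene LPCAT2, 2231 bp outside MMP2, and changed by 0.65, 0.73 and 0.81. The intronic MMP2 peak (chr16:55500553-55500863) had 2.34, 2.24, 3.42 and 2.70, and rose in erAlec0, by 1.08, but stayed under the log2 of 15 reads in all libraries.

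**Figure D2:**
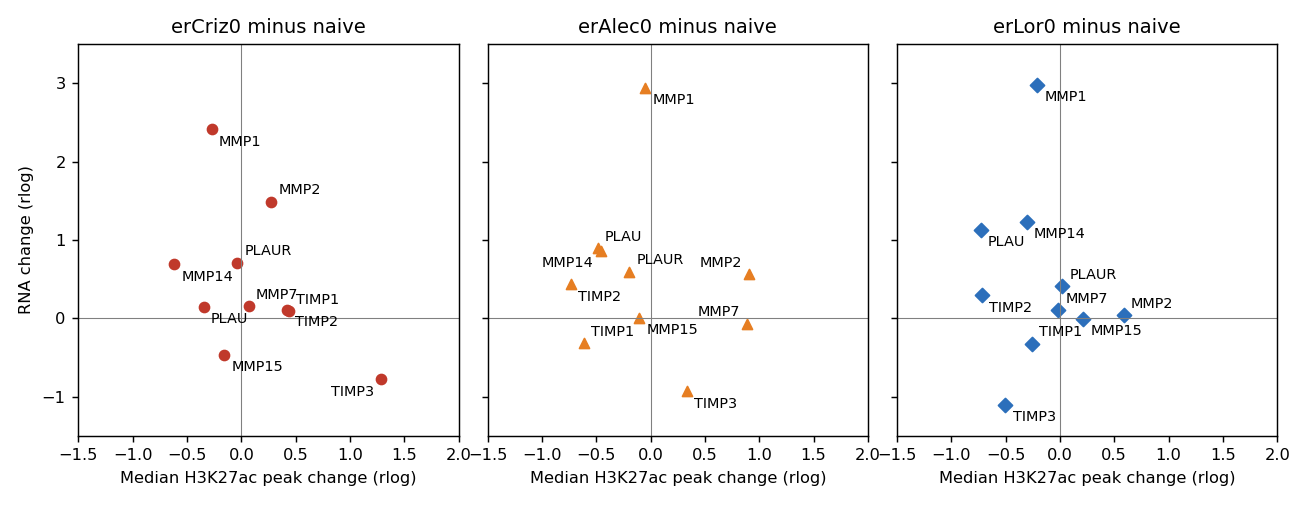
RNA change (vertical axis, rlog) against the median change of the paired H3K27ac peaks (horizontal axis, rlog) for each of the 10 genes, in erCriz0, erAlec0 and erLor0 minus naive cells. The RNA change of MMP1, between 2.41 and 2.98, goes with a peak median between -0.27 and -0.05, and TIMP3 has the highest peak median in erCriz0, 1.29, with an RNA change of -0.78.

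The inhibitor genes TIMP2 and TIMP3 carried the largest peak changes. TIMP2 had 9 peaks, and in erAlec0 and erLor0 8 of them were lower than in naive cells, with medians of -0.73 and -0.72, whereas 8 were higher in erCriz0, with a median of 0.42. The peak with the largest fall among the 78 lies in a TIMP2 intron (chr17:78859773-78864613), with 9.11 in naive cells, 9.54 in erCriz0, 7.39 in erAlec0 and 7.53 in erLor0. Its change was -1.72 in erAlec0 and -1.58 in erLor0, while TIMP2 RNA was higher there by 0.43 and 0.29. A second broad peak over a TIMP2 exon (chr17:78872381-78875602) had 7.30, 8.26, 6.57 and 6.18, and the peak upstream of the gene (chr17:78931513-78936108) had 8.81, 9.77, 8.32 and 8.10. In both, erCriz0 lay above naive cells, by 0.96, and erAlec0 and erLor0 lay below. With the median of the other peaks within 5 Mb taken off, the TIMP2 medians were 0.47, -0.60 and -0.80.

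TIMP3 had 4 peaks. In erCriz0 all were higher and 3 rose, with a median of 1.29, or 1.13 less the other peaks within 5 Mb, and TIMP3 RNA was lower there by -0.78. The largest rise among the 78 was in its first part (chr22:32809631-32810852, intronic to TIMP3 and SYN3), with 4.37 in naive cells, 6.10 in erCriz0, 3.89 in erAlec0 and 2.98 in erLor0. This peak rose by 1.73 in erCriz0 and changed by -1.39 in erLor0, so that the lines parted in both directions. The 2 exonic peaks in the last part of the gene (chr22:32857878-32858399 and chr22:32858643-32859328) were higher by 0.93 and 1.27 in erAlec0 and by 0.07 and 0.16 in erLor0. Hence TIMP3 RNA was lower in each resistant line, while its peaks were higher in erCriz0, mixed in erAlec0, and in erLor0 lower in the first part of the gene only. The highest value of these 4 peaks in any library was 6.10, and the values of such low peaks are shrunk.

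By count, peaks around PLAU were mostly lower in each resistant line, but in erCriz0, where its RNA was within 0.14 of naive cells, this depended on peak length. In erCriz0 7 of its peaks were higher, among them all those of 2 kb or more, by 0.27, 1.08, 0.61 and 0.43. The lower peaks in erCriz0 were all under 2 kb. The erCriz0 median over peaks of any length was -0.35, or -0.43 less the other peaks within 5 Mb. Of 18 peaks, 15 were lower in erAlec0 and 16 in erLor0, with medians of -0.49 and -0.73, or -0.73 and -0.88 less the other peaks within 5 Mb. The largest fall was at a short peak in the gene (chr10:73913833-73914061), by 1.23 in erLor0, but this peak stayed under the log2 of 15 reads (3.91) in all libraries. Among the PLAU peaks past that level the largest change downward was -1.04, in erAlec0 (chr10:73934691-73935178). The upstream peak at chr10:73898066-73900973 had 7.32, 8.41, 6.61 and 6.53, and rose in erCriz0, by 1.08. For MMP14, apart from the start peak, values were similar or lower: 3 of the 21 peaks fell in erCriz0, among them chr14:22860426-22860818, which fell by 1.20, and the medians were -0.62, -0.46 and -0.31. Several of the MMP14 peaks lie in the neighbouring genes SLC7A7, MRPL52 and LRP10.

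Among the 8 peaks of PLAUR, 1 fell, upstream of the gene (chr19:43676419-43677392), by 1.02 in erAlec0, while a broad peak further upstream (chr19:43685900-43688725), at 7.18 in naive cells and 8.12 in erAlec0, was higher by 0.93. TIMP1 had 3 short peaks with medians of 0.44, -0.62 and -0.26, none past the limit, with the highest change, 0.93 in erCriz0, at chrX:47563144-47563359 and the lowest, -0.77 in erAlec0, at chrX:47581925-47582175, both under the log2 of 15 reads. For MMP15 the changes ranged from -0.71 in erCriz0 (chr16:58029544-58029927) to 0.68 in erLor0 (chr16:58032548-58032793, under the log2 of 15 reads).

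**Figure D3:**
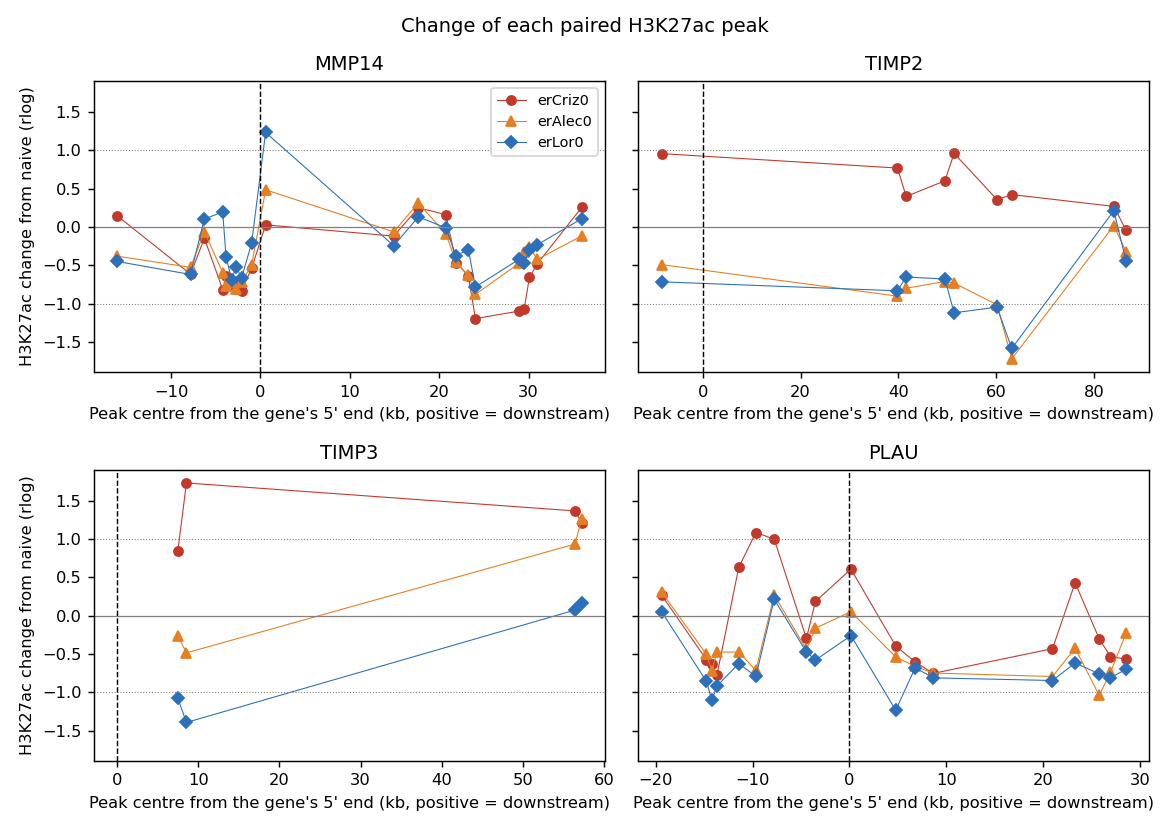
Change from naive cells (vertical axis, rlog) of each H3K27ac peak paired with MMP14, TIMP2, TIMP3 and PLAU against the distance of its centre from the 5′ end of the gene (kb, downstream positive), for erCriz0, erAlec0 and erLor0, with dotted lines at the limit of 1 and lines joining peaks of 1 library for legibility only. The MMP14 start peak stands out at 1.23 in erLor0, TIMP2 peaks separate erCriz0 from the other resistant lines down to -1.72, and the upstream PLAU peak reaches 1.08 in erCriz0.

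MMP1 and MMP7 lie in a cluster of MMP genes on chromosome 11 (chr11:102520508-102955732), and here acetylation differed by line. Of its 9 genes, 7 were in the table (MMP8 and MMP13 were not analysed here), with 27 peaks. In erAlec0 12 of them rose, where 14.1% of all peaks did, in erLor0 4 rose, against 7.45%, and in erCriz0 1, against 7.00%. None fell, against 9.41%, 8.82% and 5.94% of all peaks in these lines. The rise was densest between MMP20 and MMP27, a stretch chosen after its values were seen, where 9 of 9 peaks rose in erAlec0 (between 1.27 and 2.33) and 4 of 9 in erLor0 (between 0.47 and 1.94), while erCriz0 ranged from -0.17 to 0.68. The strongest of these peaks (chr11:102630322-102632179) had 5.15 in naive cells, 5.61 in erCriz0, 7.11 in erAlec0 and 6.54 in erLor0. This was the only 1 of the 9 past the log2 of 15 reads in naive cells. The stretch lies 110 to 168 kb from the MMP1 start, beyond the distance at which peaks were paired, so none of these peaks counts among the 78.

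The RNA of MMP1 and of its neighbour MMP10, stromelysin-2, compares with this stretch as follows. MMP10 had 3.42 in naive cells, 3.54 in erCriz0, 5.27 in erAlec0 and 4.43 in erLor0. Its RNA rose in erAlec0 and erLor0, by 1.85 and 1.01, the lines in which the stretch was higher, but MMP10 passed the expression limit only through the erAlec0 library, where it is high, and its erLor0 value lay under it. MMP1 rose in those lines and also in erCriz0, where the stretch was close to naive cells (median 0.15). MMP27 was listed at 0 in all libraries and MMP20, on the other side of the stretch, was at -1.74 in naive cells. MMP3 (-0.46) and MMP12 (-1.20) were as low, and none of these 4 genes was expressed in any line. On the MMP7 side, the broad peak at chr11:102550547-102554448 had 8.18, 8.56, 9.02 and 8.35 and a smaller one (chr11:102545276-102545691) rose in erAlec0 by 1.42, with MMP7 RNA there at -0.07 from naive cells. The lowest change of an MMP7 peak was -0.59 in erCriz0 (chr11:102545947-102546177, under the log2 of 15 reads).

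**Figure D4:**
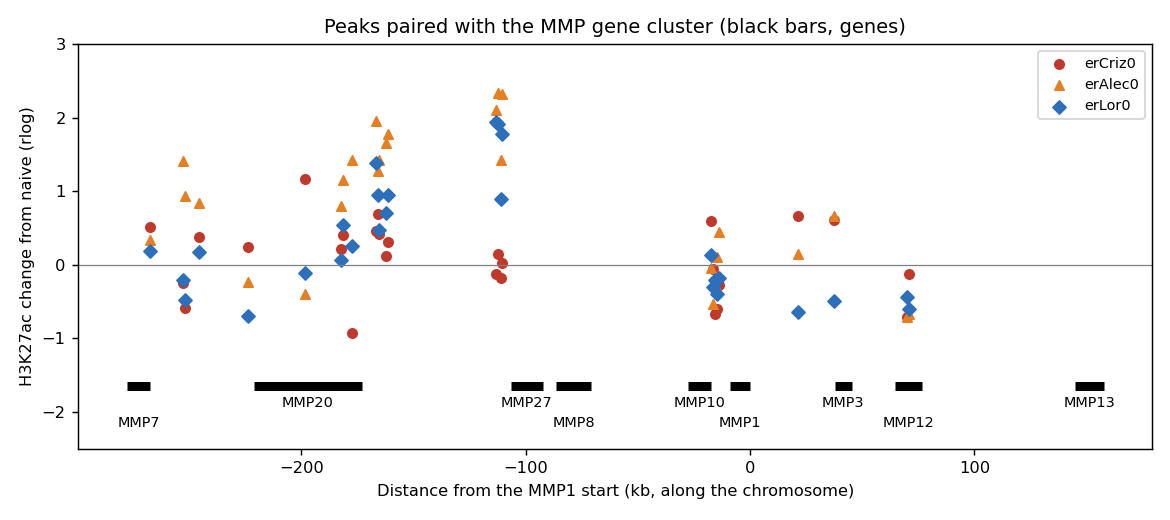
Change from naive cells (vertical axis, rlog) of the 27 H3K27ac peaks paired with the MMP genes of chromosome 11 against distance from the MMP1 start (kb along the chromosome), with black bars for the genes. Peaks between MMP20 and MMP27 reach 2.33 in erAlec0 and 1.94 in erLor0, and those beside MMP10 and MMP1 stay within 0.67 of naive cells.

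Of 69 other genes of pericellular proteolysis, 64 were in the table and 37 were expressed. In erCriz0 7 rose and 1 fell, in erAlec0 5 rose and none fell, and in erLor0 1 rose and 2 fell, with medians of -0.06, 0.12 and 0.21 over the expressed genes. Of all expressed genes, 2.65% rose and 1.65% fell in erCriz0, with 2.46% and 2.07% for erAlec0 and 1.10% and 0.740% for erLor0, against which the 1 rise in erLor0, that of MMP10, is near the background. The largest rise was in the plasminogen system, which had 7 expressed genes. PLAT, tissue plasminogen activator, the other activator beside urokinase, had 7.11 in naive cells, 11.23 in erCriz0, 9.18 in erAlec0 and 7.45 in erLor0. PLAT rose by 4.12 and 2.07 in erCriz0 and erAlec0, with a median change of its 12 peaks of 1.13 and 0.03, and was 0.33 higher in erLor0. PLAT was thus highest in the line in which PLAU was close to naive cells. PLGRKT, a plasminogen receptor, had changes of 1.34, 0.93 and 0.73, and S100A10, which binds plasminogen with ANXA2, 0.68, 1.01 and 0.65. SERPINE2, a serpin that inhibits both activators, changed by 0.32, 0.47 and 0.33, and PLG itself, plasminogen, was not expressed.

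Cathepsins are mainly lysosomal proteases. Of 13 genes of the cathepsin and cystatin list, 3 rose and 1 fell in erCriz0 (2.65% and 1.65% of expressed genes), 1 rose in erAlec0 and 1 fell in erLor0. CTSL had 8.99 in naive cells, 11.23 in erCriz0, 8.66 in erAlec0 and 7.90 in erLor0, so that it rose by 2.24 in erCriz0 and changed by -1.09 in erLor0. CTSS changed by 1.53, 1.02 and 0.51, CTSB by 1.29, 0.63 and 0.01, and CST6, a cystatin that inhibits cathepsins, by -1.48, -0.56 and 0.16. Among ADAM and ADAMTS genes, 8 of which were expressed, ADAM28 changed by 1.10, 0.04 and -0.72 and ADAM8 by 0.31, 1.23 and 0.92. Of 6 expressed cell surface serine proteases and inhibitors, TMPRSS2 changed by 1.24, 0.62 and 0.21 and TMPRSS4 by -0.46, -0.21 and -1.37. FURIN, which cuts the precursor of MMP14, changed by -0.51, 0.66 and 0.55, and the inhibitors TIMP4 and RECK were not expressed. Of the other MMPs only MMP10 and MMP17 were expressed, and MMP17 changed by -0.61, 0.09 and 0.39.

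**Figure D5:**
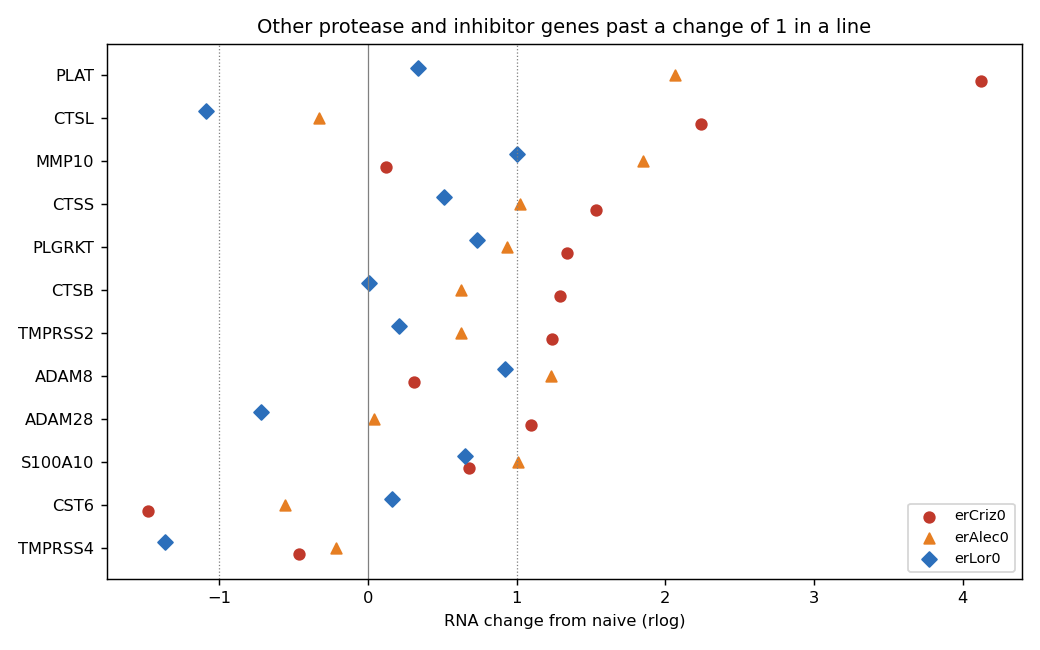
RNA change from naive cells (horizontal axis, rlog) of the 12 other protease, receptor and inhibitor genes that passed the limit of 1 (dotted lines) in at least 1 resistant line, 1 point per library pair. PLAT reaches 4.12 and CTSL 2.24 in erCriz0, MMP10 1.85 in erAlec0, and TMPRSS4 -1.37 in erLor0.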

How the data were processed

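RNA-seq and H3K27ac ChIP-seq of 4 H3122 lines were used, 1 library of each kind for each line. The authors deposited 1 table in which each row joins a peak to a gene no more than 20 kb from it, with values on a log2 scale that they computed with the DESeq2 rlog function. Its columns of means, of a correlation score r and of the p-values of r, which are the authors' own comparison, were not used. RNA reads were aligned by the authors to hg38 (HISAT2) and counted per gene (HTSeq-count). ChIP reads of 75 nt were aligned with BWA, duplicates and reads of mapping quality under 25 were dropped, MACS2 peaks (q 0.05) of the samples were merged and cleared of blacklisted regions, and featureCounts gave reads per merged peak. The submitters' processing notes also name bcl2fastq. Versions and a subtraction of input are not given in the sources used here. Since rlog values are not counts, the depth could not be known and values carry no counting error. Extra copies of a region would raise its peaks, so peak medians were also set beside the other peaks within 5 Mb.

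Changes were differences of rlog from naive cells, with a limit of 1 after the study's methods. Genes came from GENCODE release 44 on hg38 and promoter sequences from RefSeq (GRCh38.p14). No protein sequences were used, so a planned description of protein features was not made. The genes and all lists were chosen with earlier results of these data known. The text names all 10 genes, each expressed gene of the other lists that changed by 1 in a line, with some that did not for context, and the genes of the chromosome 11 cluster. Of each gene's peaks it names the start peak and those with the largest rise or fall, while other peaks were named after their values were seen. Alternatives were limits of 0.58 and 2, centring, quantile normalization, filters on low values, peaks within 5 kb, peaks paired with 1 gene, a 2 Mb window and, added after seeing the data, the RefSeq start and a split by peak length. Python 3.11.15, numpy 2.4.6, pandas 2.3.3 and matplotlib 3.10.9 were used, and the scripts were tested on simulated data.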

Additional observations from a re-analysis of the deposited data

Results flagged for a closer look

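Changes of opposite direction between resistant lines that differed by more than 1 were found for the median peak change of 3 inhibitor genes, each from 1 library per line, and the differences were not tested. For TIMP3 the median was 1.29 in erCriz0 and -0.50 in erLor0, a difference (erLor0 minus erCriz0) of -1.79. For TIMP2 the erCriz0 median was 0.42 and those of erAlec0 and erLor0 were -0.73 and -0.72, which lay -1.15 and -1.14 from erCriz0. For TIMP1, whose 3 peaks are short and low, it was 0.44 in erCriz0 and -0.62 in erAlec0, a difference of -1.06. The 4 comparisons with erCriz0 share the naive library and the erCriz0 library.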

How the results depend on the processing

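No paired analysis was possible because each line has 1 library. Of 120 counts and group medians under other settings, 39 moved and 81 did not. A group median could count as not moved although its sign turned. The median of the 78 peaks in erAlec0, -0.42, was such a case, at 0.84 over the peaks paired with no other gene. Counts moved with the limit. At a limit of 0.58 (1.5-fold) the 10 genes had 4 up and 1 down in erCriz0 and 4 up and 1 down in erAlec0. At a limit of 2 they had 1 up in erCriz0, and 1 up with 0 down in erLor0. With a mean level of at least the log2 of 25 reads, 1 rose in erCriz0, since MMP2 was dropped. The other pathway genes had, at 0.58, 4 down in erCriz0, 10 up and 2 down in erAlec0 and 5 up in erLor0, and at 2, 2 up and 0 down in erCriz0, 1 up in erAlec0, and in erLor0 0 in either direction. The 78 peaks had, at 0.58, 15 rises and 20 falls for erCriz0, 8 and 24 for erAlec0 and 5 and 26 for erLor0, and at 2, 0 in each direction in every line. Within 5 kb, 0 peaks fell in erCriz0 and 2 in erAlec0. Among the 5 peaks paired with no other gene, 0 rose and 0 fell in erCriz0, 1 rose and 0 fell in erAlec0, and 0 rose and 0 fell in erLor0. Centring on all peaks gave 8 up in erCriz0, and quantile normalization 0 up in erLor0, where the MMP14 start peak was at 0.97 (and at -0.28 in erCriz0). The cause of these moves other than the limit and the number of peaks kept was not tested.

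The median of all peaks shifted by -0.08, 0.02 and -0.10 in erCriz0, erAlec0 and erLor0. Centring turned 8858 up and 7514 down over all peaks in erCriz0 into 10897 and 5620, and 9425 and 11150 in erLor0 into 12092 and 8382. The median change of the 78 peaks in erCriz0 was -0.08, and 0.00 when centred, 0.22 within 5 kb and 0.38 over the 5 peaks paired with no other gene, which in erAlec0 gave 0.84. No value could be had for MMP1 within 5 kb, nor from singly paired peaks for any gene but MMP7 and TIMP2. Of values for single genes, 2 of 264 moved, the other being the TIMP3 median less a 2 Mb window in erCriz0, 0.98. Both had crossed the limit of 1. A single-gene value could turn sign and still count as not moved, so this share does not measure stability. The MMP14 start peak in erCriz0 was such a case, at 0.03 as deposited and -0.28 under quantile normalization. Unknown depth limits the low peaks most.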
